A study of Homo sapiens with 6 samples.

Results

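The genes described here encode Golgi glycosyltransferases, the enzymes that add sialic acid, galactose, fucose, N-acetylglucosamine and N-acetylgalactosamine to proteins and lipids on their way to the cell surface. Members were chosen by symbol: those that begin with ST3GAL, ST6GAL, ST8SIA, B3GNT, B4GALT, B3GALT, FUT, GALNT, MGAT or GCNT and go on with letters or digits only, plus A4GALT and C1GALT1. They made up 85 of the 19775 genes that the array names. Each gene was read from its brightest probe set by mean log2 value, and 48 members were bright enough to be tested among 12067 genes. On all 6 arrays 33 of the 85 lay above the negative controls described below, and 15 did so on none.

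The arrays hold RNA of 3 human multiple myeloma lines, OPM2, ARP1 and OCI-MY5, sorted with an antibody into CD24+ and CD24- cells. Myeloma is a cancer of plasma cells, and CD24 is a small, heavily glycosylated surface protein. The submitters describe the CD24+ cells as cancer stem cells. Each line gave 1 array of each fraction, so there were 3 arrays per fraction and 2 per line, all of untreated cells grown in the same medium. No label names repeat cultures, so the spread between the 2 arrays of a line holds the difference between its fractions and the technical noise, and differences between the fractions of 1 line cannot be checked against replicates. The number of arrays limits the precision of every comparison.

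Values are MAS5 intensities, the authors' summary of the probes of a probe set, and differences are those of log2(intensity + 16), where the added 16 shrinks the differences of dim genes. All 8 plasma cell markers measured (SDC1, CD38, TNFRSF17, XBP1, PRDM1, IRF4, MZB1 and JCHAIN) lay above the negative controls on all 6 arrays. The controls are TrpnX probe sets for a bacterial transcript, with intensities of 2.23 to 96.4. Their highest value is the upper end of the control range used below. Of markers of other cells, none of the 3 T cell, 3 myeloid, 2 B cell and 2 erythroid genes was above them on all arrays, while 2 of 3 epithelial and 1 of 3 fibroblast genes were. T cell markers summed to 297 and 253 in OPM2, 179 and 178 in ARP1 and 115 and 69.5 in OCI-MY5. CD3D was within the control range throughout, but CD2 was above it on both OPM2 arrays, at 150 and 132. CD3E was above it in CD24+ cells of OPM2 and ARP1, at 129 and 105. Myeloid markers summed to 210 and 108, 43.8 and 38.1, and 44.0 and 71.3 in the same lines. B cell markers summed to 225 and 69.4, 409 and 364, and 416 and 492, epithelial markers to 251 to 547 and fibroblast markers to 319 to 493 over all arrays. Of the erythroid markers HBB was high in OPM2, at 2300 and 1790, against 76.2 and 225 in ARP1 and 99.9 and 192 in OCI-MY5, while ALAS2 stayed within the control range on every array. The part of such cells in the results was not tested. The brightest CD24 probe set was within the control range on all arrays but that of OPM2 CD24+ cells, at 99.2, so the transcript gave no check of the sort. The OPM2 CD24+ array stood apart, with a median intensity of 135 over all probe sets, against 69.0 to 84.2 on the other arrays. Its spike-in control probe sets had a geometric mean of 37361.9, against 6174.55 to 7399.47 on the other arrays. The cause of this difference was not tested. That array enters every OPM2 contrast of the main fit and all differences within OPM2. Counts without it are given beside the results.

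As background, glycosyltransferases act one after another. GALNT enzymes start mucin-type O-glycans on serine and threonine, C1GALT1 and GCNT enzymes extend and branch them, and MGAT enzymes build the antennae of N-glycans. B4GALT and B3GNT enzymes lengthen the antennae with galactose and N-acetylglucosamine, and FUT, ST3GAL, ST6GAL and ST8SIA enzymes cap them. In plasma cells the N-glycan of the antibody heavy chain carries the products of FUT8, MGAT3, B4GALT1 and ST6GAL1, and the cell surface carries sialylated ligands for adhesion receptors.

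The promoters of 7 members are shown. They are all those in the RefSeq table among the 9 members called in the same direction in OPM2 against both other lines: FUT8, ST3GAL5 and B3GNT2, which were higher in OPM2, and GALNT14, ST6GAL1, MGAT4B and B4GALT4, which were lower. Each runs from 250 bases before to 50 bases after the start that RefSeq gives the gene (GRCh38.p14), 5′ to 3′ on the gene's strand. Capitals mark GGGCGG, the GC box, on either strand.
FUT8 promoter, chr14:65410342-65410641, plus strand: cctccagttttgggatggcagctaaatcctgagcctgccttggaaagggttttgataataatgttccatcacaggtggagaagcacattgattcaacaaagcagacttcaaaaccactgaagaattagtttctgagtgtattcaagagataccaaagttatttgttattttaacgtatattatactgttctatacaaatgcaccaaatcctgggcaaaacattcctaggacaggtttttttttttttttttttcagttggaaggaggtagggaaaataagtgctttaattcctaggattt
ST3GAL5 promoter, chr2:85888941-85889240, minus strand: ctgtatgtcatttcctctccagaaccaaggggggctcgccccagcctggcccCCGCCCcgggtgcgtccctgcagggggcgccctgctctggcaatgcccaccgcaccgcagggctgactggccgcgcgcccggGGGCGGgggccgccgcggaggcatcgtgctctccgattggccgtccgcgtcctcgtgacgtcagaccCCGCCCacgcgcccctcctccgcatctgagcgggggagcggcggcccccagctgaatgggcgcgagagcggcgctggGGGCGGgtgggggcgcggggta
B3GNT2 promoter, chr2:62195865-62196164, plus strand: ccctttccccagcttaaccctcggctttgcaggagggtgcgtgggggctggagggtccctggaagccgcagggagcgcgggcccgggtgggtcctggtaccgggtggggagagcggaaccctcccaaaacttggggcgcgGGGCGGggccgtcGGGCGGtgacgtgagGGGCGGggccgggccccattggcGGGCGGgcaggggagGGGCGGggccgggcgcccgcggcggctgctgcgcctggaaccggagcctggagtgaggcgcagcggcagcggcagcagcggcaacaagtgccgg
GALNT14 promoter, chr2:31138391-31138690, minus strand: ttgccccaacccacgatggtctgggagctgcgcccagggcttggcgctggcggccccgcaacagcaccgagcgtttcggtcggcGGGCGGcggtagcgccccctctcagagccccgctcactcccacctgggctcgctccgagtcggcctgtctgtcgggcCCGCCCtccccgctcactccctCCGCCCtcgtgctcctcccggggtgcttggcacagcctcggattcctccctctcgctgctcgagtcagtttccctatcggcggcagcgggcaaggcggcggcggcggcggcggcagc
ST6GAL1 promoter, chr3:186930276-186930575, plus strand: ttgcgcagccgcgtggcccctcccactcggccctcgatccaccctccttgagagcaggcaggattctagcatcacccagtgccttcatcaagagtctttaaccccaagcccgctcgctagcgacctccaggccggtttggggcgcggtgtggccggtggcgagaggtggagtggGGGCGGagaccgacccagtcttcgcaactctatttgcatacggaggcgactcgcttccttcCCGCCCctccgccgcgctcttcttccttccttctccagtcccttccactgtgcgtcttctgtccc
MGAT4B promoter, chr5:179802826-179803125, minus strand: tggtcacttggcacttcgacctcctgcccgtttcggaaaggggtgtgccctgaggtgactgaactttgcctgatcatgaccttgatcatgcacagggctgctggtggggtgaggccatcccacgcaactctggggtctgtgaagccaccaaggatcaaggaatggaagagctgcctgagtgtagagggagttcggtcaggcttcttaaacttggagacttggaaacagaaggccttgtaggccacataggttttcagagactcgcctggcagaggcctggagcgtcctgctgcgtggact
B4GALT4 promoter, chr3:119240829-119241128, minus strand: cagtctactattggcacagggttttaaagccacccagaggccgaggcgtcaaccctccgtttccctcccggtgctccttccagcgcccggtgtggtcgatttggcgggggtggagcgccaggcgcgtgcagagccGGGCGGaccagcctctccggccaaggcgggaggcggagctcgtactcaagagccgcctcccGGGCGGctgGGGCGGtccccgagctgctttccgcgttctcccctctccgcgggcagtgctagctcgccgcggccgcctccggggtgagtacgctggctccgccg

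The B3GNT2 window held 5 GC boxes, that of ST3GAL5 4, those of GALNT14 and B4GALT4 3 each and that of ST6GAL1 2, while those of FUT8 and MGAT4B held 0. The FUT8 window was 36% G and C with 1 CG dinucleotide, and the ST3GAL5 window was 76.3% G and C with 36. Promoters were found for 64 of the 85 members, and 40 of these, or 62.5%, held a GC box on either strand, against 44.6% of 27305 promoters of the same length. Among the 14 members called between lines that have a promoter in the table, 9 held one, or 64.3%. Of the 36 tested members with a promoter, from which these come, 26 did, or 72.2%. TATAAA was in 2 of the 64, or 3.12%, against 11.9% of all promoters, and CACGTG in 7, or 10.9%, against 7.43%. Median G and C content was 66.3% for the members, against 58.3% for all promoters. No promoter was listed for MGAT3, ST8SIA2, GALNT6 or B4GALT6. A match of letters is a description of the window and not a binding site, and RefSeq's start need not be the one these cells use.

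Members varied mostly between lines. For the median tested member the line took 77.0% of the sum of squares and the CD24 fraction 2.85%, against 77.5% and 4.76% for the median of all tested genes. The line took at least 50% for 40 of the 48 members, and most for ST6GAL1, at 99.6%. The fraction took more than the line for 5 members, ST3GAL3, B3GNT9, A4GALT, B4GALT5 and B4GALT7. These counts are not given for all tested genes, whose median line share was close to that of the members. They therefore do not set the members apart from other genes. There are more lines than fractions, so the line can take a larger share of the sum of squares for that reason alone. The heatmap of all tested members shows blocks of colour that follow the lines.

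**Figure D1:**
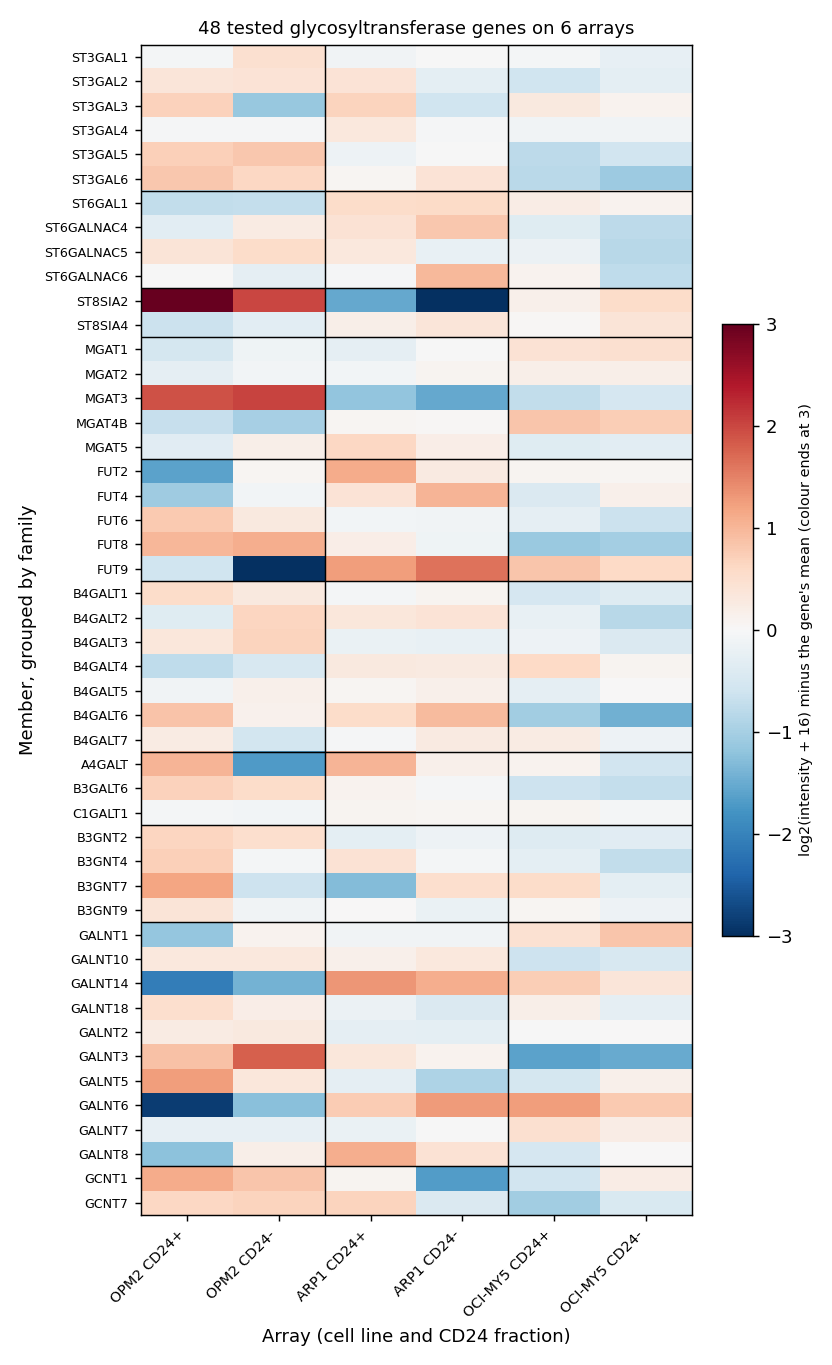
Each of the 48 tested members (rows, grouped by family) on each of the 6 arrays (columns, CD24+ beside CD24- within OPM2, ARP1 and OCI-MY5), as log2(intensity + 16) minus the gene's own mean, with colours ending at 3. MGAT3 and ST8SIA2 are red on both OPM2 arrays, GALNT14 and GALNT6 are blue there, and few rows differ between the fractions of a line as they do between lines.

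Between lines, 18 of the 48 tested members had a limma p below 0.05 after Benjamini-Hochberg adjustment in at least 1 contrast, or 37.5%, against 34.6% of all tested genes. In OPM2 against ARP1 10 members passed, 5 higher and 5 lower in OPM2, or 20.8%, against 25.1% of all tested genes (10.2% higher and 14.9% lower). In OPM2 against OCI-MY5 17 members passed, 12 higher and 5 lower, or 35.4%, against 26.2% of all tested genes (11.4% higher and 14.8% lower). The 12 that were higher are 25% of the members tested. In bulk RNA fewer cells with a transcript and less of it per cell cannot be told apart. Both contrasts use the same OPM2 arrays; 9 members passed in both, 4 higher and 5 lower in OPM2 each time.

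The counts depended on the scaling of the arrays. Before centring, the median difference of all tested genes was −0.04 in OPM2 against ARP1 and −0.002 in OPM2 against OCI-MY5. After centring every array on its own median, these were −0.30 and −0.40, so centring moved all genes down in OPM2. In the first contrast 2 members were then higher and 4 lower, or 12.5%, against 15.6% of all tested genes, and in the second 4 higher and 4 lower, or 16.7%, against 18.1%. The larger share of members than of all genes called against OCI-MY5 was thus absent after centring. It was present in every other setting that kept all 6 arrays. Quantile normalization gave 9 higher and 5 lower, or 29.2%, against 28.1%, and 12 higher and 6 lower, or 37.5%, against 27.6%. Without the OPM2 CD24+ array 13 members passed against ARP1, or 27.1%, against 26.8% of all tested genes, and 15 against OCI-MY5, or 31.2%, against 26.6%. Among them were 9 of the 10 and 14 of the 17. Every called member kept its direction in these fits. The calls that stayed after centring were those of MGAT3, GALNT14 and GALNT6 in both contrasts, ST8SIA2 and ST6GAL1 against ARP1, and FUT8, MGAT4B, GALNT3 and B4GALT6 against OCI-MY5. Averaging all probe sets of a gene ended the calls of B3GNT2 and ST6GAL1 in both contrasts, of FUT8 and MGAT4B against ARP1, and of B3GALT6, B4GALT3, B4GALT6 and GALNT10 against OCI-MY5. With any 1 array left out, MGAT3, GALNT14 and ST8SIA2 against ARP1 and MGAT3, FUT8, GALNT3 and MGAT4B against OCI-MY5 passed every time.

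Among the MGAT enzymes, which build N-glycan antennae, MGAT3 was higher in OPM2. It adds the bisecting N-acetylglucosamine, which stops further branching. Here and below, the first of each pair of intensities is that of the CD24+ array. MGAT3 had 1050 and 1130 in OPM2, 108 and 81.2 in ARP1, and 153 and 184 in OCI-MY5. Both OPM2 values lay far above all others, and the CD24- value of ARP1 was within the control range. The log2 difference was 3.33 ± 0.21 against ARP1 and 2.59 ± 0.21 against OCI-MY5 (limma, ± standard error, adjusted p = 0.00115 and 0.00213). A second MGAT3 probe set was within the control range in ARP1 and OCI-MY5, so it gives only a bound, at least 6.4-fold higher in OPM2 than in either.

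MGAT4B, which adds a further antenna, was lower in OPM2. Its intensity was 2290 and 1850 in OPM2, 3880 and 3820 in ARP1, and 6580 and 6210 in OCI-MY5, and the lines did not overlap. The differences were −0.90 ± 0.19 against ARP1 and −1.63 ± 0.19 against OCI-MY5 (limma, adjusted p = 0.0264 and 0.00515), and a second probe set differed by −1.16 and −1.32. MGAT1, which makes the first addition that commits an N-glycan to the complex type, had 593 and 790 in OPM2, 711 and 852 in ARP1 and 1170 and 1210 in OCI-MY5, and MGAT2, which starts the next antenna, had 6500 and 7470, 7460 and 8370, and 8990 and 8900. Neither passed in any contrast, with MGAT1 at adjusted p = 0.0543 in OPM2 against OCI-MY5. MGAT5, which makes the branch that galectins favour, had 1120 and 1590 in OPM2, 2190 and 1620 in ARP1 and 1100 and 1130 in OCI-MY5. It did not pass either, and its OPM2 and OCI-MY5 values overlapped.

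FUT8 adds the core fucose of N-glycans, the sugar whose absence from an antibody strengthens killing by natural killer cells. Its intensity was 3540 and 3810 in OPM2, 2040 and 1610 in ARP1, and 806 and 864 in OCI-MY5, so the lines stood in that order without overlap. The differences were 1.01 ± 0.20 against ARP1 and 2.12 ± 0.20 against OCI-MY5 (limma, adjusted p = 0.0216 and 0.00294), and ARP1 against OCI-MY5 gave an adjusted p of 0.0598. A second FUT8 probe set gave −0.45 against ARP1 and 0.96 against OCI-MY5, so the direction against ARP1 rests on the probe set used. Of the fucosyltransferases that make Lewis-type antigens, FUT6 was higher in OPM2 than in OCI-MY5 by 0.98 ± 0.25 (limma, adjusted p = 0.0419). Its 3 other bright probe sets differed by 0.11 to 0.28. The probe set used is of the x_at kind, which can bind transcripts of related genes such as FUT3 and FUT5, and the call was lost without the OPM2 CD24+ array.

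FUT9, which makes the Lewis x antigen, had 137 and 2.02 in OPM2, 538 and 699 in ARP1 and 401 and 334 in OCI-MY5. Both OPM2 values lay below all others, but they were far apart. The differences of −3.58 ± 0.98 and −2.86 ± 0.98 did not pass (limma, adjusted p = 0.0531 and 0.0907). The OPM2 CD24- value was within the control range, so these are not exact sizes. Raised to the top of that range, it left FUT9 at least 5.34-fold lower than in ARP1 and 3.19-fold lower than in OCI-MY5. FUT4, which also makes Lewis x, had 48.7 and 112 in OPM2, 164 and 260 in ARP1 and 84.5 and 134 in OCI-MY5 and did not pass. FUT2, the secretor fucosyltransferase, was within the control range on 5 of the 6 arrays.

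**Figure D2:**
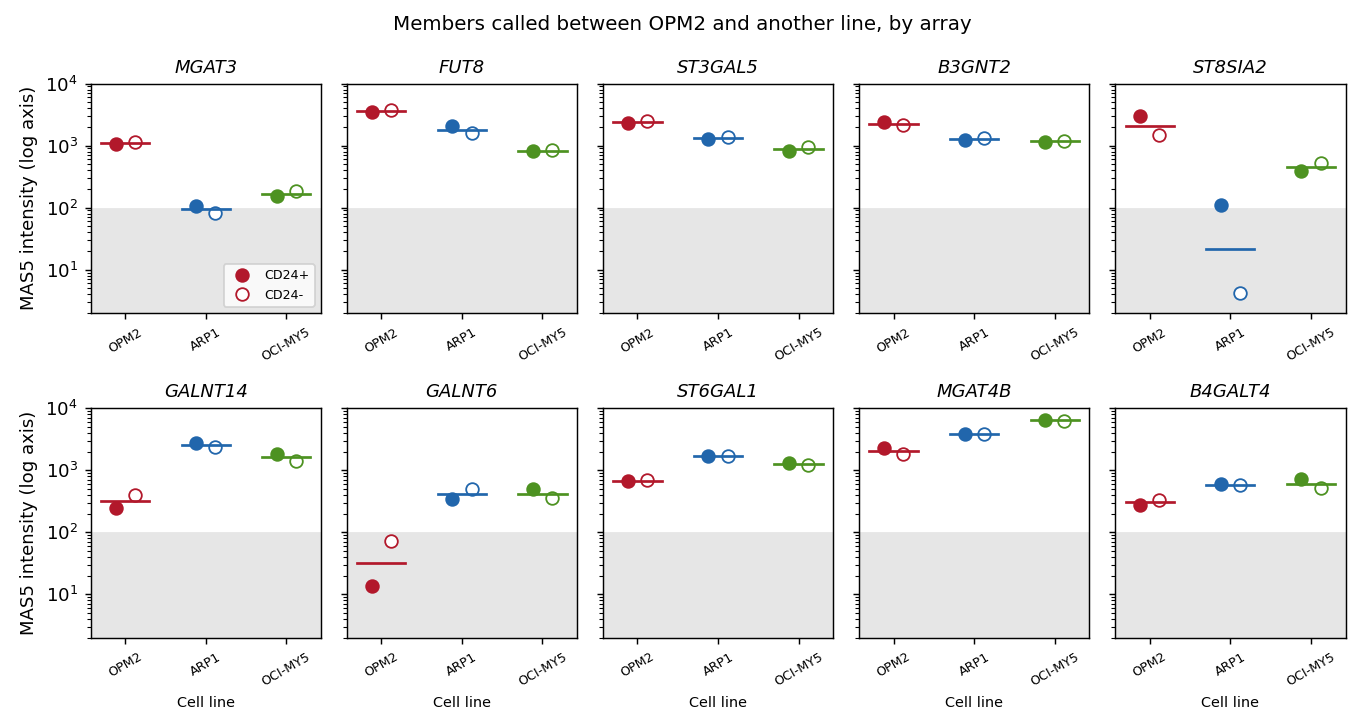
MAS5 intensity (log axis) of 10 members on the 6 arrays, filled points for CD24+ and open points for CD24- cells of OPM2, ARP1 and OCI-MY5, with a bar at the geometric mean of each line and grey up to the highest TrpnX control, 96.4. The 5 members of the upper row are higher in OPM2 and the 5 of the lower row are lower; in GALNT6 both OPM2 points lie in the grey.

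Sialyltransferases did not move one way between lines. ST3GAL5 makes the ganglioside GM3 from lactosylceramide. Its intensity was 2340 and 2500 in OPM2, 1270 and 1400 in ARP1, and 810 and 939 in OCI-MY5, and the lines did not overlap. It was higher in OPM2 by 0.85 ± 0.18 against ARP1 and by 1.46 ± 0.18 against OCI-MY5 (limma, adjusted p = 0.0276 and 0.00625). ST3GAL6, which sialylates lactosamine chains and takes part in selectin ligands, had 2420 and 2140 in OPM2, 1440 and 1830 in ARP1, and 773 and 633 in OCI-MY5. It passed against OCI-MY5, by 1.68 ± 0.22 (limma, adjusted p = 0.00696), and not against ARP1, where its 2 other bright probe sets differed by 0.07 and −0.48. Against OCI-MY5 these differed by 0.87 and 0.37. ST3GAL1 and ST3GAL2, which cap O-glycans and gangliosides, and ST3GAL3 and ST3GAL4, which cap lactosamine chains, passed in no contrast.

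ST6GAL1, the enzyme that caps N-glycans of B cells and antibodies with sialic acid, was lower in OPM2. Its intensity was 679 and 688 in OPM2, 1670 and 1720 in ARP1, and 1330 and 1230 in OCI-MY5. The 2 fractions of each line were nearly equal and the lines did not overlap. The differences were −1.29 ± 0.16 and −0.89 ± 0.16 (limma, adjusted p = 0.00728 and 0.0183). With all ST6GAL1 probe sets averaged, the differences were −0.72 and −0.16. Of the ST6GALNAC enzymes, which sialylate O-glycans and gangliosides, ST6GALNAC4 had 458 and 683 in OPM2, 785 and 1020 in ARP1 and 442 and 328 in OCI-MY5; it, ST6GALNAC5 and ST6GALNAC6 did not pass.

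The polysialyltransferases ST8SIA2 and ST8SIA4 build the long sialic acid chains carried by NCAM1. ST8SIA2 had 2970 and 1460 in OPM2, 111 and 4.26 in ARP1, and 390 and 518 in OCI-MY5. OPM2 was highest and ARP1 lowest without overlap, and the ARP1 CD24- value was within the control range. With that value raised to the top of the control range, ST8SIA2 was at least 20.1-fold higher in OPM2 than in ARP1 (limma on the measured values, adjusted p = 0.0152). The difference of 2.17 ± 0.90 against OCI-MY5 did not pass (adjusted p = 0.139). A second probe set was within the control range on both ARP1 arrays and at least 4.35-fold higher in OPM2. ST8SIA4 had 1270 and 1600 in OPM2, 2240 and 2560 in ARP1 and 2040 and 2620 in OCI-MY5. Both OPM2 values were the lowest, but the differences of −0.75 ± 0.23 and −0.69 ± 0.23 did not pass (limma, adjusted p = 0.0706 and 0.0834). Its 3 other bright probe sets differed the same way, by −1.84 to −1.21 against ARP1 and −1.07 to −0.51 against OCI-MY5.

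Among GALNT enzymes, which start O-glycans, those called were on both sides. GALNT14, which glycosylates death receptors, had 248 and 406 in OPM2, 2770 and 2360 in ARP1, and 1840 and 1430 in OCI-MY5. It was lower in OPM2 by log2 differences of −2.95 ± 0.30 and −2.29 ± 0.30 (limma, adjusted p = 0.00383 and 0.0069). GALNT6, known to start O-glycans in breast cancer cells, had 13.8 and 73.7 in OPM2, 347 and 504 in ARP1, and 493 and 355 in OCI-MY5. Both OPM2 values were within the control range, so OPM2 has only a bound there: against the top of that range on geometric means, GALNT6 was at least 4.34-fold lower in OPM2 than in either line (limma, adjusted p = 0.0186 against ARP1 and 0.0179 against OCI-MY5). A second GALNT6 probe set was also within the control range in OPM2, where it was at least 2.76-fold lower than in ARP1 and 3.86-fold lower than in OCI-MY5.

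GALNT3, known for protecting the hormone FGF23 from cleavage, had 1290 and 2460 in OPM2, 889 and 751 in ARP1, and 217 and 235 in OCI-MY5. It was higher in OPM2 than in OCI-MY5 by 2.89 ± 0.34 (limma, adjusted p = 0.00542) and did not pass against ARP1 (adjusted p = 0.0695). A second, dimmer GALNT3 probe set differed by only 0.10 between OPM2 and OCI-MY5. GALNT10 was higher in OPM2 than in OCI-MY5 by 0.87 ± 0.17 (limma, adjusted p = 0.0227), with 1 other bright probe set at 1.61 and another at −1.26. The broadly expressed GALNT1, GALNT2 and GALNT7 did not pass: GALNT1 had 1320 and 3200 in OPM2, 2740 and 2740 in ARP1 and 4070 and 5300 in OCI-MY5. Its 3 other bright probe sets differed by 0.20 to 0.35 against ARP1, opposite in sign to the −0.41 of the one used. The 3 other bright probe sets of GALNT2 were all higher in OPM2, by 1.25 to 2.09 against ARP1 and 0.97 to 1.64 against OCI-MY5, where the one used gave 0.56 and 0.27. GALNT5, GALNT8 and GALNT18 did not pass either.

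B3GNT2, which extends poly-lactosamine, had 2370 and 2170 in OPM2, 1240 and 1350 in ARP1, and 1160 and 1200 in OCI-MY5. It was higher in OPM2 by 0.80 ± 0.17 and 0.93 ± 0.17 (limma, adjusted p = 0.0272 and 0.0175), while a second probe set gave −0.13 and 0.02. B4GALT6, a lactosylceramide synthase, had 423 and 251 in OPM2, 339 and 453 in ARP1, and 103 and 73.2 in OCI-MY5, a difference of 1.73 ± 0.33 between OPM2 and OCI-MY5, where 1 of the 2 arrays was within the control range (limma, adjusted p = 0.0194). B4GALT1, the main enzyme that galactosylates N-glycans, was higher in OPM2 than in OCI-MY5 by 0.87 ± 0.19, and B4GALT3 by 0.79 ± 0.21 (limma, adjusted p = 0.029 and 0.0473). The B4GALT1 call was lost without the OPM2 CD24+ array.

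B4GALT4 was the only member of its family called lower in OPM2, with 275 and 337 there, 592 and 581 in ARP1 and 733 and 509 in OCI-MY5. The differences were −0.91 ± 0.24 and −0.97 ± 0.24 (limma, adjusted p = 0.0493 and 0.0413), close to the threshold and past it in neither contrast without the OPM2 CD24+ array. The call against ARP1 was also lost after quantile normalization and with a pseudocount of 1, and that of B4GALT3 with a pseudocount of 1. B3GALT6, which adds a galactose to the linker of proteoglycans, had 2490 and 2260 in OPM2, 1640 and 1500 in ARP1 and 985 and 929 in OCI-MY5 and was higher in OPM2 than in OCI-MY5 by 1.29 ± 0.17 (limma, adjusted p = 0.00743). A second B3GALT6 probe set went the other way, by −0.73 against OCI-MY5 and −1.35 against ARP1, so the direction of this gene is uncertain. C1GALT1, which makes the core of most O-glycans, had 1850 and 1800, 2020 and 2000, and 2030 and 1840 in OPM2, ARP1 and OCI-MY5 and did not pass. Its other 2 bright probe sets were lower in OPM2, by −0.99 and −1.90 against ARP1 and by −0.50 and −0.95 against OCI-MY5, so its 3 bright probe sets differ in what they show. B4GALT2, B4GALT5, B4GALT7, B3GNT4, B3GNT7, B3GNT9 and A4GALT did not pass. A second bright probe set of B4GALT5 gave 1.69 and 1.91, where the one used gave −0.09 and 0.14, and one of B4GALT7 gave −2.02 and −1.93, where the one used gave −0.28 and −0.20.

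GCNT1, which branches O-glycans into the core that carries selectin ligands, had 322 and 265 in OPM2, 151 and 33.4 in ARP1 and 88.8 and 166 in OCI-MY5. The OPM2 values lay above all others, but the differences of 1.76 ± 0.63 and 1.16 ± 0.63 did not pass (limma, adjusted p = 0.0993 and 0.228). The ARP1 CD24- and OCI-MY5 CD24+ values were within the control range, so these are not exact sizes. A second bright GCNT1 probe set differed by 2.44 against ARP1 and 1.61 against OCI-MY5. GCNT7, a transcribed pseudogene in RefSeq, did not pass.

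**Figure D3:**
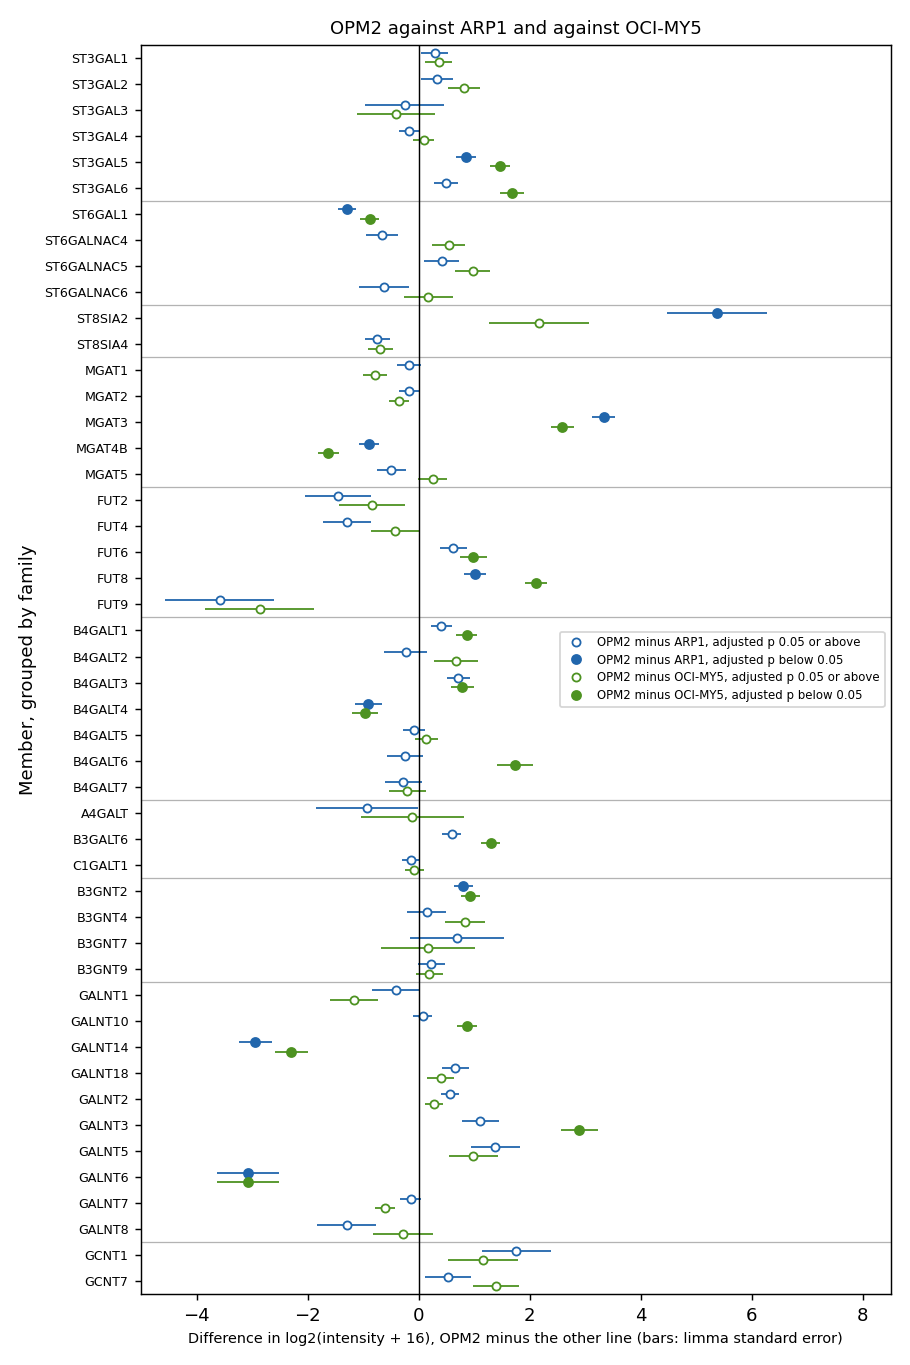
Difference in log2(intensity + 16) between OPM2 and ARP1 (blue) and between OPM2 and OCI-MY5 (green) for the 48 tested members, with limma's standard error as bars and filled points where the adjusted p was below 0.05. MGAT3 lies at 3.33 against ARP1 and 2.59 against OCI-MY5 and GALNT14 at −2.95 and −2.29. Some points rest on values in the control range, so their positions are not exact sizes. Among these are ST8SIA2 and MGAT3 against ARP1, B4GALT6 against OCI-MY5, and GALNT6, FUT9 and GCNT1 in both contrasts.

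Between ARP1 and OCI-MY5 0 of the 48 members passed (limma), against 2.72% of all tested genes (1.83% higher and 0.887% lower in ARP1), and 13 had an unadjusted p below 0.05, or 27.1%, against 23.6% of all tested genes. The lowest adjusted p was 0.0525, for B4GALT6, at 1.99 ± 0.33 higher in ARP1, followed by FUT8, ST3GAL6 at 1.19 with adjusted p = 0.0632 and GALNT3 at 1.79 with adjusted p = 0.0661. The median difference over tested members was 0.31, against 0.04 for all tested genes. The count was 4 without either OPM2 array, which here enter only the estimate of the spread, and 8 where the prior variance followed intensity.

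The 37 members below the brightness limit had a median intensity of 33.0 over all arrays. GALNT11, MGAT4C and GALNT13 were above the control range on both arrays of 1 line. GALNT11, which glycosylates Notch receptors, had 675 and 385 in OPM2, 90.2 and 7.1 in ARP1 and 2.8 and 3.5 in OCI-MY5. Its mean log2 value of 6.31 lay just below the limit of 6.36, and on geometric means it was at least 5.29-fold higher in OPM2 than the control range that holds both other lines. MGAT4C, a relative of the MGAT4 branching enzymes, had 3.41 and 17.8 in OPM2, 294 and 397 in ARP1 and 28.9 and 18.9 in OCI-MY5, at least 3.55-fold above the control range in ARP1. In a fit with no brightness limit GALNT11 passed in OPM2 against OCI-MY5 (limma, adjusted p = 0.0342) and not against ARP1 (0.0738), and MGAT4C passed in OPM2 against ARP1 (0.0129). Without the limit 7.23% and 8.29% of all genes passed in these 2 contrasts. FUT2, B3GNT7 and ST6GALNAC5, at 6.38, 6.42 and 6.46, were just inside the limit.

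Other genes of the pathway, from a list of 62 that supply sugars, trim glycans or build related chains, were tested for 51. In OPM2 against ARP1 4 passed as higher, or 7.84%, against 10.2% of all tested genes, and 13 as lower, or 25.5%, against 14.9%. In OPM2 against OCI-MY5 4 passed as higher, or 7.84%, against 11.4%, and 7 as lower, or 13.7%, against 14.8%. Their median differences were −0.22 and −0.01. XYLT1, which starts proteoglycan chains and was read from an x_at probe set, had 2120 and 2140 in OPM2, 721 and 801 in ARP1 and 6.58 and 5.68 in OCI-MY5, and it passed in all 3 contrasts, with adjusted p = 0.00557 in ARP1 against OCI-MY5 (limma). SLC35A1, which carries activated sialic acid into the Golgi, had 3720 and 3720 in OPM2, 1610 and 1750 in ARP1 and 1540 and 1650 in OCI-MY5. CMAS, which activates sialic acid, had 588 and 1010, 1790 and 1980, and 1530 and 1730 in the same lines. SLC35A1 was higher in OPM2 by 1.14 and 1.22 (limma, adjusted p = 0.0106 and 0.00812), while CMAS was lower than in ARP1 by a difference of −1.27 (adjusted p = 0.0356). The Notch fringe enzyme MFNG had 37.8 and 101 in OPM2 and 3550 to 4000 in the other lines, and UGCG, which makes glucosylceramide, was lower in OPM2, with differences of −1.20 and −1.23 (limma, adjusted p = 0.0208 and 0.0187).

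The study's own comparison, CD24+ against CD24- cells, gave 0 of 48 members past limma's threshold, as for all 12067 genes (0%). The median difference was 0.03 for the members and 0.03 for all tested genes, and the lowest adjusted p of a member was 1. Without adjustment 2 members, A4GALT and ST3GAL3, had p below 0.05, or 4.17%, against 1.22% of all tested genes. The 3 lines differ in their levels, and the fit without a block leaves these differences in its spread, so it could hardly pass a member. With the line as a block, which pairs the arrays, 4 members had an unadjusted p below 0.05, or 8.33%, against 4.63%. In that fit 0 passed after adjustment, and the lowest adjusted p of a member was 0.847 (limma). Without the OPM2 line 0 members passed and 0 had an unadjusted p below 0.05. Centring the arrays moved the median difference of all tested genes to −0.30.

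A member had the same sign in all 3 lines in 15 cases, 9 higher in CD24+ cells, or 18.8%, against 16.9% of all tested genes, and 6 lower, or 12.5%, against 12.2%. A4GALT, which makes the globoside Gb3, had 182 and 14.1 in OPM2, 182 and 93.1 in ARP1 and 89.7 and 49.9 in OCI-MY5. It was higher in CD24+ cells in each line, but all 3 CD24- values and the CD24+ value of OCI-MY5 were within the control range, so the size of these differences is not given. ST3GAL3, which caps lactosamine chains, had 385 and 97.9 in OPM2, 380 and 148 in ARP1 and 287 and 250 in OCI-MY5. Its mean difference was 1.09 ± 0.83, with 0.19 in OCI-MY5. For the fractions, here and below, ± is the standard deviation of the 3 within-line differences. It is not limma's standard error, which was 0.38 for ST3GAL3 and 0.32 for GALNT18. All 3 CD24+ values of ST3GAL3 lay above all 3 CD24- values.

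B3GNT4, which adds N-acetylglucosamine to lactosamine chains, had 339 and 192, 276 and 191, and 162 and 115 in OPM2, ARP1 and OCI-MY5, a mean difference of 0.57 ± 0.17. FUT4 had 48.7 and 112, 164 and 260, and 84.5 and 134, a mean difference of −0.73 ± 0.22. Its CD24+ values in OPM2 and OCI-MY5 were within the control range, so this size is not exact. GALNT18 differed by 0.33 ± 0.09, B3GNT9 by 0.31 ± 0.17, ST8SIA4 by −0.30 ± 0.09, ST3GAL5 by −0.15 ± 0.06, B4GALT5 by −0.20 ± 0.12 and MGAT1 by −0.24 ± 0.18. None of these 8 passed after adjustment.

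**Figure D4:**
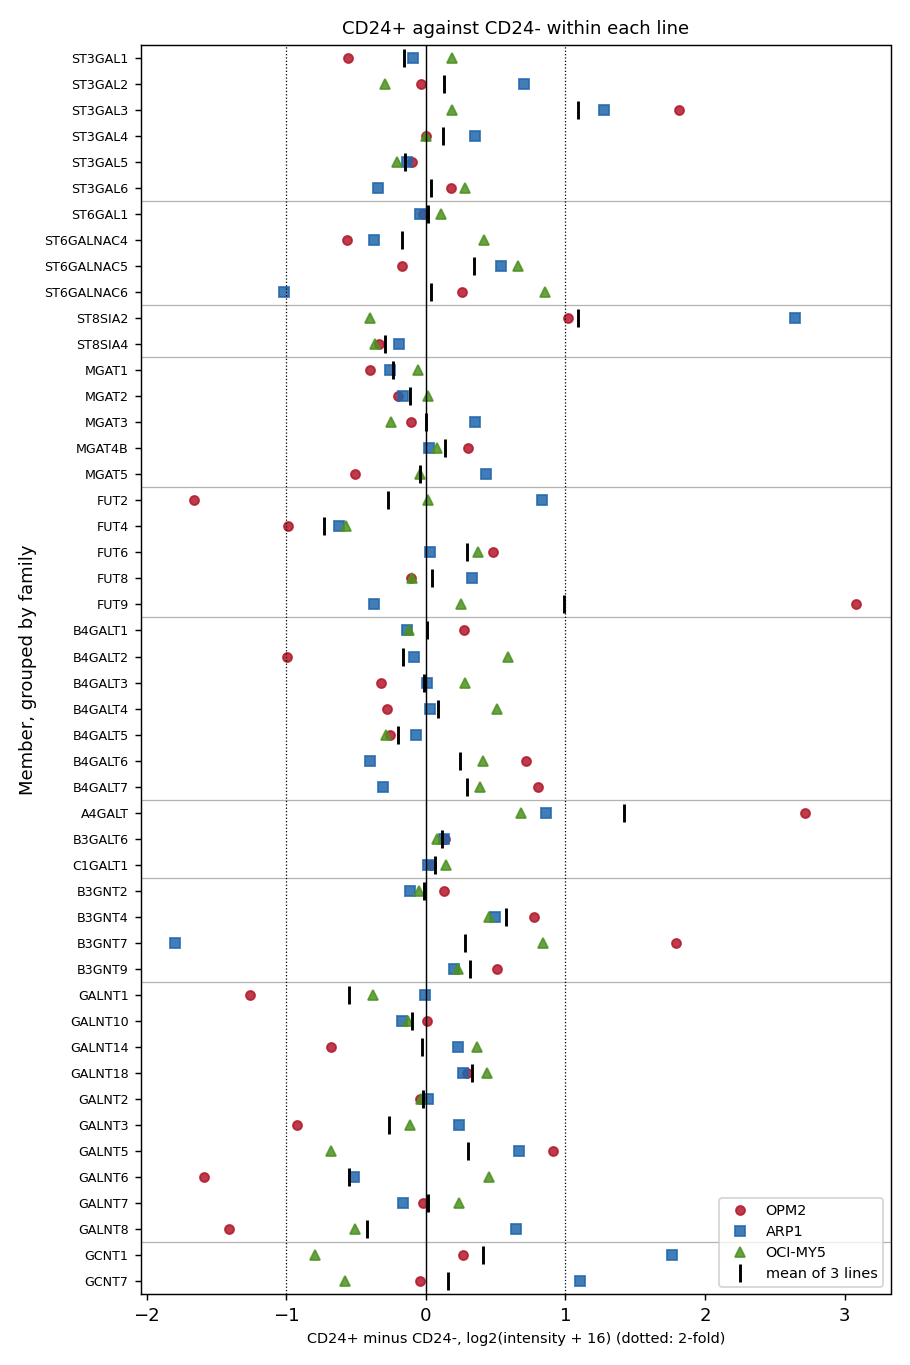
Difference between CD24+ and CD24- cells in log2(intensity + 16) for the 48 tested members within OPM2 (circles), ARP1 (squares) and OCI-MY5 (triangles), with a black bar at the mean of the 3 lines and dotted lines at 2-fold. OCI-MY5 points all lie between the dotted lines, and those past them belong to OPM2 or ARP1. Most of the points past the dotted lines, FUT9 and A4GALT in OPM2 among them, rest on a value within the control range and are not exact sizes.

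Within OPM2 5 members were at least 2-fold higher in CD24+ cells, A4GALT, B3GNT7, FUT9, ST3GAL3 and ST8SIA2, or 10.4%, against 13.0% of all tested genes, and 4 were at least 2-fold lower, FUT2, GALNT1, GALNT6 and GALNT8, or 8.33%, against 5.20%. Within ARP1 4 were higher, GCNT1, GCNT7, ST3GAL3 and ST8SIA2, or 8.33%, against 2.39%, and 2 were lower, B3GNT7 and ST6GALNAC6, or 4.17%, against 2.64%. Within OCI-MY5 0 members were past 2-fold in either direction, against 3.65% higher and 2.05% lower of all tested genes. B3GNT7 had 178 and 40.1 in OPM2 and 18.8 and 105 in ARP1, opposite ways, with 1 value of each pair within the control range. Of the 15 differences past 2-fold, 10 had at least 1 value within the control range, so their sizes are not exact. Across members the 2 fractions of a line correlated at r = 0.889 (OPM2), 0.937 (ARP1) and 0.978 (OCI-MY5), against 0.936, 0.975 and 0.976 across all tested genes, a description over genes that share 2 arrays.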

How the data were processed

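Each deposited value is a linear MAS5 intensity of 1 probe set on 1 array, made by the authors in Affymetrix Expression Console 1.1, as the design text and, per the labels, the submitters' processing notes state. The arrays are Affymetrix Human Genome U133 Plus 2.0; the 62 control probe sets among 54675 were left out of the tests. With the highest and lowest 2% of values left out, the mean was 499.9 on every array, and no other scaling between arrays shows in the values. The spike-in controls were far from equal at this scaling, with the OPM2 CD24+ array highest, as given above. No detection calls were used.

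Symbols came from the platform's annotation and were updated by Entrez ID through the RefSeq table of GRCh38.p14, which 41037 of 41091 probe sets with 1 symbol matched; 1801 named several genes (GALNT4 among these) and 11721 none. FUT10 and FUT11 are now POFUT3 and POFUT4 and antisense RNAs carry a hyphen, so these are not members; GCNT1P1, GCNT7 and MGAT4EP are pseudogenes in RefSeq.

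Intensities were transformed as log2(intensity + 16). Genes whose mean reached 6.36 (the median over probe sets) were tested two-sided in R 4.3.3 using lmFit and eBayes of limma 3.58.1, with Benjamini-Hochberg adjustment over all tested genes and a threshold of 0.05. Lines were compared in 1 fit over 6 arrays, with the CD24+ and CD24- array of a line as its replicates; fractions were compared without a block, as the series' design states no pairing. Same-numbered arrays come from the same line, and deviations from the fraction means correlated at 0.768 (OPM2), 0.704 (ARP1) and 0.707 (OCI-MY5), against −0.58 to 0.15 between lines, so the numbers pair the arrays. The fits were tested on simulated data. For the fraction fit the simulated lines did not differ, so that test does not carry over to these lines.

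Named genes are, per family, the member with the highest mean and up to 4 called between lines by largest difference, and for the fractions the 5 highest and 5 lowest steady differences; others were named after their values were seen. Of the pathway genes some of the 8 with the largest differences are named, and SLC35A1, CMAS and UGCG were chosen after their values were seen. The members, lists and tests were chosen with earlier results of these data known. Alternatives were pseudocounts of 1 and 64, other brightness limits, quantile normalization, averaging a gene's probe sets, centring on array medians, a prior variance trend, the line block, the fraction as a covariate, and leaving out lines or arrays, with probe sets and tested genes kept as in the main setting unless the alternative changes them.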

Additional observations from a re-analysis of the deposited data

How the results depend on the processing

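In OPM2 against ARP1, where 10 members passed, 6 passed with each array centred on its median, 6 with no brightness limit, 17 with an intensity trend in the prior variance, and 3 to 18 with 1 array left out. The count was 3 without either ARP1 array, 5 without either OCI-MY5 array, 13 without the OPM2 CD24+ array and 18 without the OPM2 CD24- array. Only GALNT14, MGAT3 and ST8SIA2 passed in all 6 of these fits. In OPM2 against OCI-MY5, where 17 passed, the count was 8 after centring, 11 with no brightness limit, 11 with the mean of all probe sets, and 5 to 21 with 1 array left out (5 without the OCI-MY5 CD24+ array, 6 without its CD24- array, 12 without either ARP1 array, 15 without the OPM2 CD24+ array and 21 without the OPM2 CD24- array). FUT8, GALNT3, MGAT3 and MGAT4B passed in all 6. In ARP1 against OCI-MY5, where 0 passed, the count was 4 with a pseudocount of 64, 8 with the 75th percentile as brightness limit, 1 with quantile normalization, 1 after centring, 8 with the prior variance trend, and 0 to 4 with 1 array left out. Fits without 1 array leave a line with 1 array, which is assumed to vary like the others. The calls over all tested genes, given below, rose and fell in the same settings, so these swings are not particular to the members. With no brightness limit 7.06% of members passed in OPM2 against ARP1, against 7.23% of all genes. In OPM2 against OCI-MY5 the shares were 12.9% and 8.29%. No called member changed direction under the other scalings, pseudocounts or the mean of all probe sets, where 2 of the 17 fell below the brightness limit; with that mean 6 of the 10 and 9 of the other 15 passed. Over all tested genes the 3024, 3157 and 328 calls became 1430, 1640 and 0 with no brightness limit and 1882, 2179 and 146 after centring. With 1 array left out they were 708 to 4190, 933 to 4532 and 0 to 1076. The 328 became 168 and 731 with pseudocounts of 1 and 64, 1282 with the 75th percentile, 137 with averaged probe sets, 1375 with the trend and 6 with the fraction as a covariate. With the trend 35.4% of members passed in OPM2 against ARP1, against 33.5% of all genes. In OPM2 against OCI-MY5 45.8% passed, against 33.2%, and in ARP1 against OCI-MY5 16.7%, against 11.4%. With the 75th percentile 27 members were tested, and 29.6% passed in ARP1 against OCI-MY5, against 16.8% of all genes. In OPM2 against ARP1 48.1% passed, against 42.3%, and in OPM2 against OCI-MY5 66.7%, against 41.7%. With averaged probe sets 28.2% of 39 members passed in OPM2 against OCI-MY5, against 21.3%. For CD24+ against CD24- 0 members passed in every setting, with the cell line as a replicate block (0) and without each line (0 to 0) included.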
